A study of Zea mays with 9 samples.

Results

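A small group of maize genes was selected for higher measured coverage, a readout of chromatin accessibility, after 12 h of tunicamycin than at 0 h or 6 h. The group held 60 genes of the 38703 in the deposited table. It was chosen by a rule on the measured values, after each library had been divided by its total coverage and multiplied by the mean of the 9 totals. A member had a mean over the 9 libraries from 730 to under 2000 read bases. In a member, every 12 h library also lay above every 0 h and 6 h library, and the 12 h mean was at least 1.5 times each earlier mean. The rule used all 9 values of each gene, so the 12 h gain itself is given below as a description, and no test of it is used.

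Tunicamycin blocks the first step of N-linked glycosylation, so that glycoproteins misfold in the endoplasmic reticulum (ER). Plant cells answer with the unfolded protein response, in which the ER membrane sensor IRE1 splices the mRNA of a bZIP transcription factor and genes for chaperones are induced. The response first favours survival, and ER stress that persists can end in cell death, the transition that the series is about. ATAC-seq uses a transposase to insert adapters into open DNA, so reads pile up where nucleosomes leave DNA free. A gain of accessibility is often seen at genes that are being activated, but it measures neither RNA nor the binding of a factor.

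The libraries were made from nuclei of flash-frozen roots of B73, a maize inbred line, and all samples carry tunicamycin as the labelled agent. Seedlings had been kept for 7 days at 23 °C after germination. The groups were 0 h, 6 h and 12 h, with 3 libraries each, which the series calls biological replicates. The dose is labelled as 5 mg per ml in DMSO, which may be a stock or a final concentration. Effects of the drug and of elapsed time cannot be told apart, since the 6 h and 12 h libraries have no untreated counterparts here. One label field calls the material protoplasts, while the source and the extraction protocol name root. Markers of root or leaf cells could not be checked, because 0 of the 38703 identifiers matched a name in the RefSeq table of maize genes used here. For the same reason the members are given by identifier, with no function or position. Total coverage was 35.0 to 39.1 megabases at 0 h, 28.9 to 33.1 at 6 h and 35.8 to 36.8 at 12 h. Divided by 73, the step on which low values pile up and which is taken here as the coverage of 1 read, these totals came to between 396306 and 536001 reads.

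The coverage range held 19836 genes, and members were 0.302% of them. In 277 of these genes (1.4%) every 12 h library lay above every earlier one, and 217 of those did not reach 1.5 times both earlier means. A further 43 genes reached 1.5 times both means with overlapping libraries. When 12 h replicate 1 was left out, so that only 2 libraries had to lie above the others, the rule gave 133 genes. Without 12 h replicate 2 it gave 151, and without 12 h replicate 3 it gave 119. Leaving out any single 0 h or 6 h library gave 69 to 85 genes. The mirror of the rule, with 12 h lower than both earlier times, held 87 genes. With 6 h as the high time it held 66 genes, and with 0 h as the high time 32.

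The rule also calls for the same count with the columns relabelled. There are 840 ways to name 3 columns as high and to divide the other 6 into 2 groups of 3. The 10 ways that kept the 12 h libraries as the high ones gave 55 to 68 genes, with a median of 62.5. The true labels are among these 10. The 10 with the 6 h libraries high gave 59 to 74, with a median of 64.5, and the 10 with the 0 h libraries high gave 30 to 38, with a median of 36. The other 810, with columns of different times named as high, gave 17 to 62 genes, with a median of 37. Among these 810, 1 reached the 60 genes of the true labels. All but 1 of the mixed labellings thus gave genes of the same shape in smaller numbers. The counts do not show which of the 60 members differ from the genes of the mixed labellings.

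**Figure D1:**
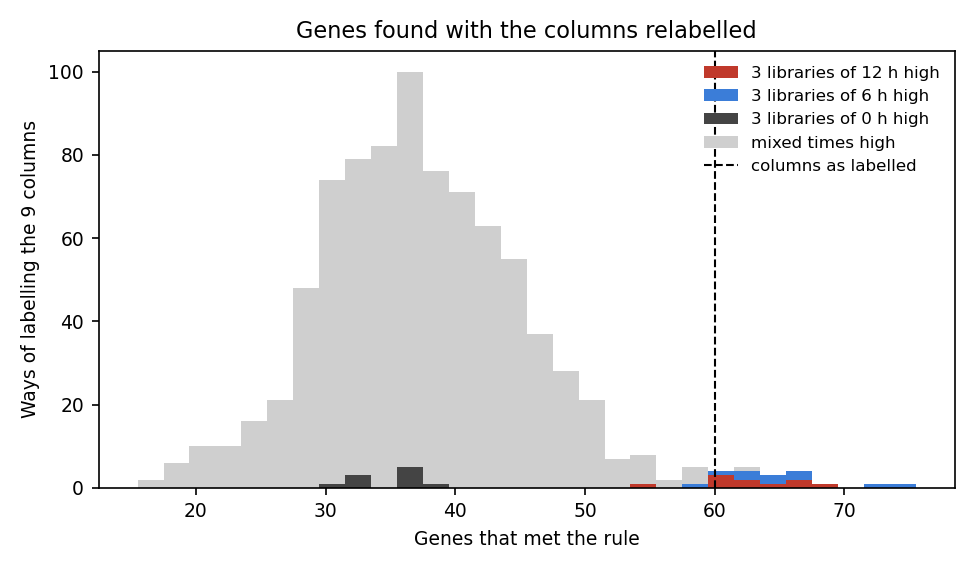
The x axis counts the genes that met the rule and the y axis counts ways of labelling the 9 columns, in bins of 2 genes and stacked by which libraries were named as high. The dashed line marks the 60 genes found with the true labels, above the median of 37 of the mixed labellings (grey). The true labelling is itself among the 10 with the 12 h libraries high (red), which gave 55 to 68. Of these 10, 9 gave 60 or more.

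Members lay below the level of other genes of the coverage range at 0 h and 6 h and slightly above it at 12 h. The rule sets 12 h above the earlier times, which places the earlier levels below a member's own mean over the 9 libraries. Members also came more often from the low end of the range, with a mean under 1000 in 40 of 60 (66.7%), against 37.9% of the range. The levels beside other genes therefore follow at least in part from the selection. The mean over the 9 libraries was 926 read bases in the median member, against 1111 in the range. Their median scaled coverage was 715 to 808 read bases in the 0 h libraries, 742 to 772 in the 6 h libraries and 1225 to 1289 in the 12 h libraries. All genes of the coverage range had medians of 1114 to 1130 in every library. In reads, the median member held 10.2 per library at 0 h, 10.1 at 6 h and 17.2 at 12 h. The members together took 0.135% ± 0.00707 of all coverage at 0 h, 0.133% ± 0.00133 at 6 h and 0.230% ± 0.00367 at 12 h (SD, n = 3 each). No member was at 0 in any library, and none shared its 9 values with another row, as 165 rows of the table did.

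**Figure D2:**
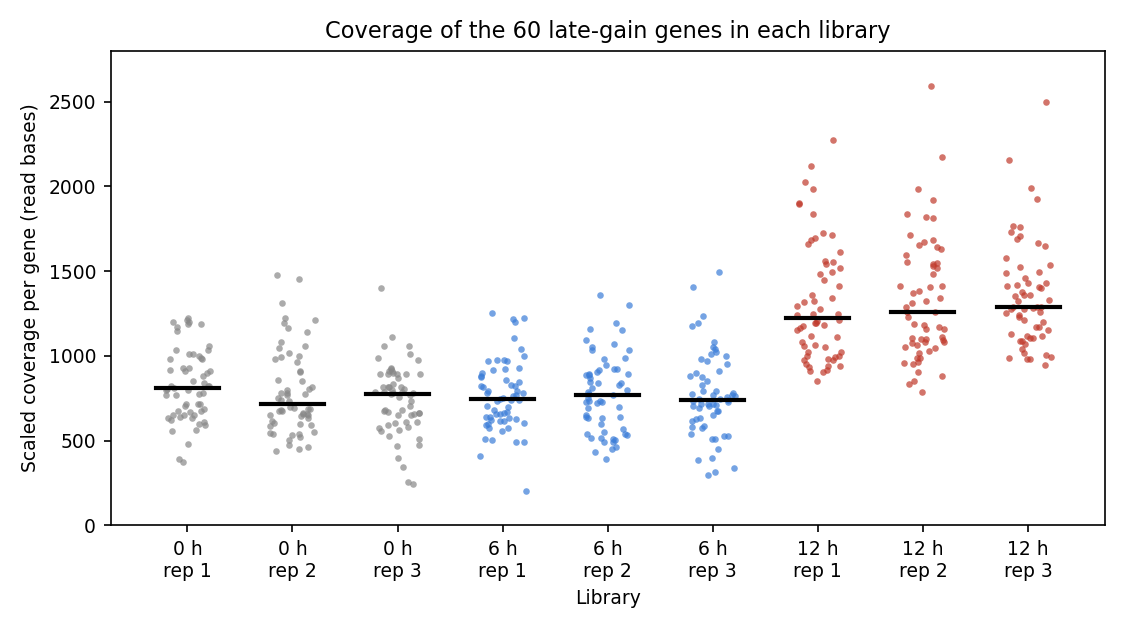
Each point is 1 of the 60 members in 1 library, with scaled coverage in read bases on the y axis and the 9 libraries on the x axis. Black bars are medians, which run from 715 to 808 in the 6 earlier libraries and from 1225 to 1289 in the 3 libraries of 12 h.

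That all 3 libraries of 12 h lay above the earlier ones is set by the rule. Which of them was highest or lowest is not. Replicate 1 was the highest of the 9 libraries in 20 members, replicate 2 in 17 and replicate 3 in 23. Replicate 1 was the lowest of the 12 h libraries in 27 members, replicate 2 in 20 and replicate 3 in 13. Among the earlier libraries, the one that came nearest from below was a 0 h library in 33 members (replicate 1 in 14, replicate 2 in 15 and replicate 3 in 4) and a 6 h library in 27.

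Gains were mostly close to the threshold. The ratio of the 12 h mean to the higher of the earlier means had a median of 1.58 and ran from 1.502 to 2.24. It was under 1.6 in 34 of the 60 members, at least 1.7 in 10 and at least 2 in 2. The gap between the lowest 12 h library and the highest earlier one had a median of 127 read bases, less than the coverage of 2 reads. In 13 members that gap was smaller than 1 read, and in 12 it was 3 reads or more. The narrowest was 3.15 read bases, in Zm00001d039083.

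Zm00001d019241 had the largest gain and the highest mean coverage of the members. Its scaled coverage was 1188, 1311 and 788 read bases in the 0 h libraries, 1103, 1159 and 827 at 6 h, and 2273, 2593 and 2497 at 12 h. The lowest 12 h library stood 962 read bases, or 13.2 reads, above the highest earlier one, and 0 h and 6 h overlapped fully. Its 12 h mean was 2454 ± 164 (SD, n = 3), 2.24 times the 0 h mean of 1095 ± 274 and 2.38 times the 6 h mean of 1030 ± 178. No other member had a gap of more than 406 read bases. The lowest mean coverage of the members was 735 read bases, in Zm00001d032213.

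Zm00001d011364 was the other member at 2 times or more. Its values were 824, 651 and 242 at 0 h, 654, 518 and 317 at 6 h, and 1154, 987 and 1360 at 12 h. The 12 h mean was 2.04 times that of 0 h and 2.35 times that of 6 h, and its 6 earlier libraries ran from 242 to 824. Zm00001d033906 had 619, 998 and 578 at 0 h, 577, 887 and 509 at 6 h, and 1554, 1385 and 1417 at 12 h. In both earlier times of that gene replicate 2 was the highest library, and its 12 h libraries were close together, at 1452 ± 89.8 (SD, n = 3).

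Zm00001d007216 had 1037, 658 and 920 at 0 h, 1043, 448 and 1052 at 6 h, and 1497, 1920 and 1255 at 12 h. Zm00001d025205 was at 389, 633 and 605 at 0 h, 410, 724 and 705 at 6 h, and 1109, 851 and 1321 at 12 h. At 12 h the SDs of these genes were 337 around 1558 and 236 around 1094 (n = 3 each). Divided by its mean, each SD was 0.216, against medians of 0.161 in members and 0.199 in the range. Zm00001d043881 had tight 0 h libraries of 651, 673 and 774, then 679, 904 and 793 at 6 h and 1561, 1182 and 1400 at 12 h. Its 12 h mean was 1.97 times the 0 h mean and 1.74 times the 6 h mean.

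Zm00001d005632 had 882, 675 and 575 at 0 h, 202, 838 and 337 at 6 h, and 1081, 1106 and 1491 at 12 h. Its ratio to 6 h, 2.67, was the highest of the members, and 2 of its 6 h libraries lay far below all the others. Zm00001d017786 had 927, 1451 and 788 at 0 h, 1251, 893 and 1014 at 6 h, and 1696, 1986 and 1768 at 12 h. With 24.9 reads per library at 12 h it was among the better covered members. Zm00001d030743, with 669, 1138 and 590 at 0 h, 927, 831 and 529 at 6 h, and 1194, 1671 and 1241 at 12 h, had a gap of less than 1 read. Zm00001d047679 had 796, 550 and 817 at 0 h, 699, 505 and 777 at 6 h, and 1449, 1258 and 983 at 12 h.

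**Figure D3:**
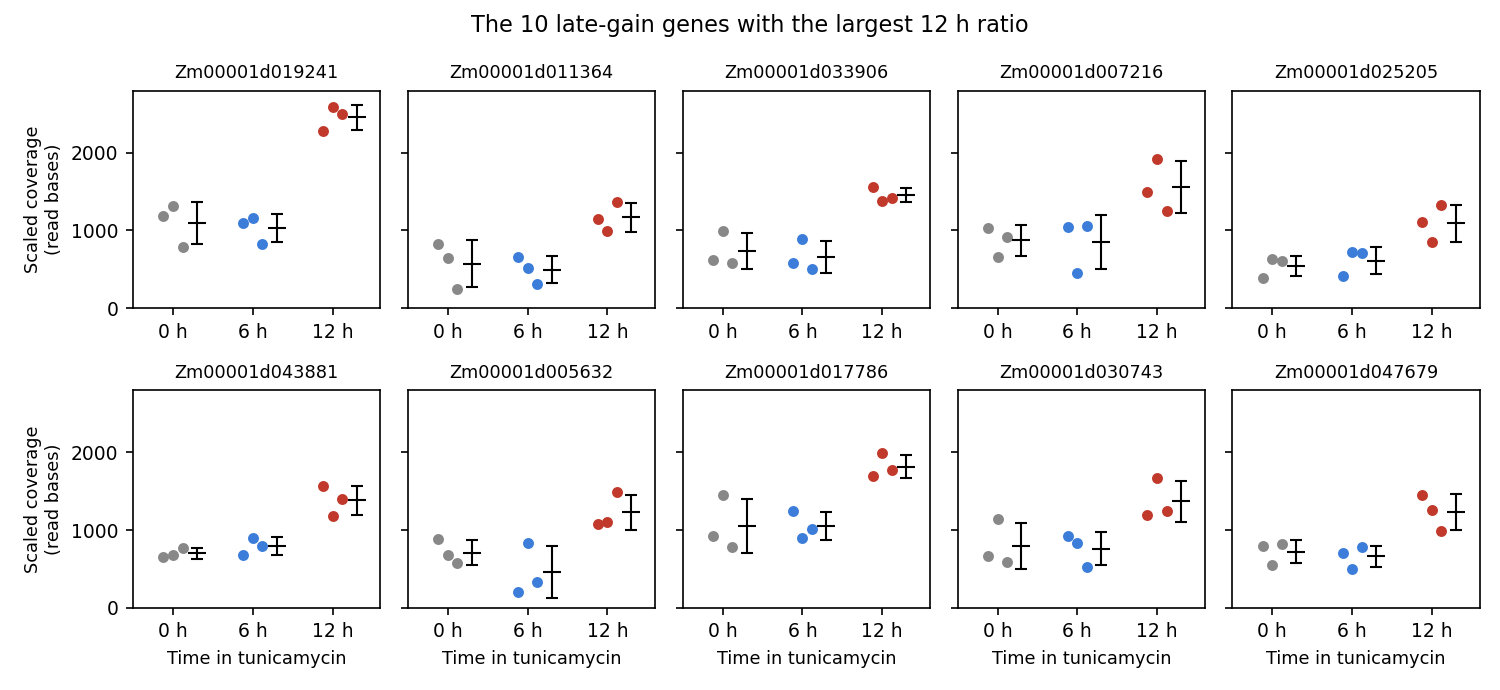
Each panel is 1 of the 10 members with the largest ratio of the 12 h mean to the higher earlier mean, with scaled coverage in read bases on the y axis and time on the x axis. Points are libraries and bars are the mean ± SD of 3. In Zm00001d019241 the 12 h libraries start at 2273, while in the other 9 panels the gap above the earlier libraries is at most 388 read bases.

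Membership at the threshold turned on small differences. The members nearest above it were Zm00001d027551 at 1.512 times the higher earlier mean, Zm00001d033611 at 1.507 and Zm00001d017485 at 1.502. Just below it were Zm00001d042923 at 1.495, Zm00001d045509 at 1.492 and Zm00001d006131 at 1.490, all with 12 h libraries above every earlier one. Zm00001d045509 had 1327, 1136 and 1173 at 0 h, 1134, 1206 and 1308 at 6 h, and 1796, 1623 and 2025 at 12 h. Its gap of 4.06 reads was wider than that of most members, and it was left out by the ratio alone.

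Only 9 members met the rule again whichever single library was left out. An omission could not break the separation, since the remaining 12 h libraries of a member still lay above its earlier ones. Only the ratio or the coverage range could fail, on the same values that had selected the members. Being kept therefore says nothing of how wide the gap was. The 9 members were Zm00001d019241, Zm00001d033906, Zm00001d043881, Zm00001d017786, Zm00001d030743, Zm00001d047679, Zm00001d041259, Zm00001d015227 and Zm00001d032897. The last 3 were outside the largest 10. Zm00001d041259 had 1186, 1020 and 1008 at 0 h, 1200, 1191 and 982 at 6 h, and 2121, 1545 and 1992 at 12 h. Its 6 earlier libraries kept within a narrow band, and the mean was 1886 ± 302 at 12 h (SD, n = 3). Zm00001d015227 had 675, 963 and 736 at 0 h, 883, 813 and 296 at 6 h, and 1276, 1405 and 1289 at 12 h. Zm00001d032897 had 704, 544 and 771 at 0 h, 618, 633 and 781 at 6 h, and 1063, 1159 and 1150 at 12 h, and its 12 h libraries had an SD of only 53.4. Over the 9 omissions, between 38 and 53 of the 60 members met the rule.

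The gain pattern became rarer as coverage rose. Within the range, it was met by 40 of 7521 genes with a mean from 730 to under 1000 (0.532%), by 19 of 8555 from 1000 to under 1500 (0.222%), and by 1 of 3760 from 1500 to under 2000 (0.0266%). That 1 gene was Zm00001d019241. Outside the range the other conditions were met by 85 of 5832 genes under 365 (1.46%), by 101 of 11328 from 365 to under 730 (0.892%) and by 0 of 1707 at 2000 or more. The spread between libraries of a time was smaller along the same scale, with a median coefficient of variation of 49.5% under 365, 23.5% from 730 to under 1000 and 13.96% at 2000 or more. The part that the spread of thinly read genes has in the number of members was not tested.

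**Figure D4:**
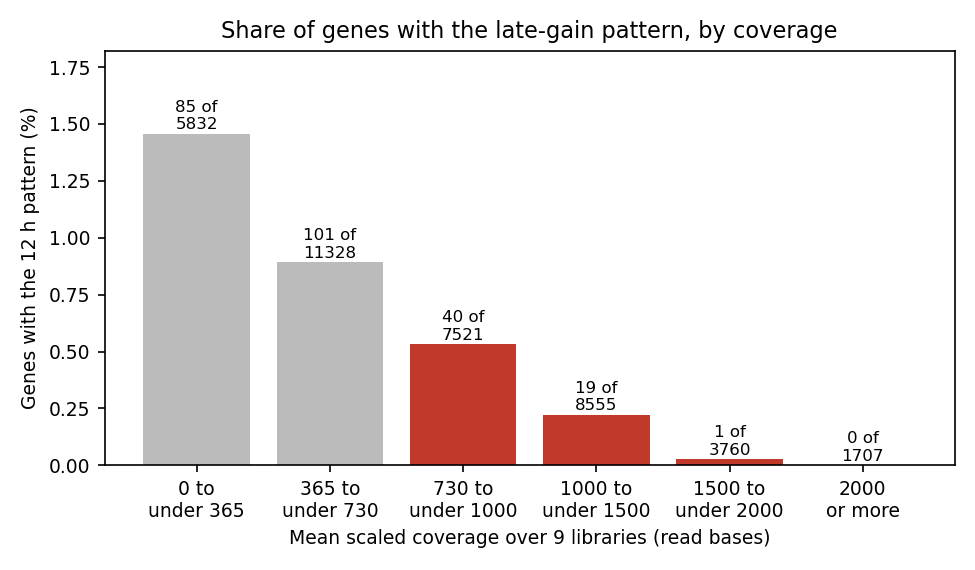
Bars give the percentage of genes that met the 12 h conditions in 6 classes of mean scaled coverage (x axis, read bases), with counts above each bar. The classes inside the coverage range are red. The share is 1.46% in the lowest class and 0 of 1707 in the highest.

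Outside the range, the 3 genes with the pattern and no coverage at all at 0 h and 6 h were Zm00001d022281, Zm00001d014624 and Zm00001d024209. They had 208, 192 and 142 read bases, 139, 211 and 71, and 69, 70 and 142 in the 12 h libraries, which is the coverage of about 1 to 3 reads each. The next by ratio were Zm00001d030992 and Zm00001d042881, with 12 h means of 235 and 85.7 read bases. A coverage of 0 shows that no read was seen at this depth, so no fold is given for the first 3.

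The difference between 6 h and 0 h was not set by the rule directly, although the rule held both times below 12 h. In the median member the 6 h mean was 0.989 times the 0 h mean, with an interquartile range from 0.894 to 1.07, against 0.997 and 0.865 to 1.15 for all genes of the range. In 52 members (86.7%) the means were within 20% of each other, against 66.2% of the range. The rule narrows this ratio, since both means must stay well under that of 12 h. The 6 h mean was the higher in 25 members. All 6 h libraries lay above all 0 h libraries in 1 member, Zm00001d033611, against 5.36% of the range, and all lay below in 0 members, against 5.73%.

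Zm00001d033611 was the member with the most graded course, with 592, 519 and 471 at 0 h, 782, 751 and 767 at 6 h, and 990, 1064 and 1413 at 12 h. Each time stood clear of the one before, and the 6 h mean was 1.46 times the 0 h mean. For 6 h against 0 h its log2 change of 0.53 (SE 0.33) did not pass the threshold of 0.05, at a limma adjusted p of 0.870. Zm00001d037945 and Zm00001d023620 came next, at 1.34 and 1.29 times, with log2 changes of 0.49 (SE 0.34) and 0.34 (SE 0.35) and limma adjusted p of 0.884 and 0.928. Single libraries decided these sizes. The log2 change of Zm00001d037945 was 0.14 without 0 h replicate 3 and 0.75 without 0 h replicate 2. That of Zm00001d023620 was 0.21 without 6 h replicate 1, 0.22 without 0 h replicate 2 and 0.53 without 6 h replicate 2.

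At the other end, Zm00001d003857 had 707, 391 and 385 at 6 h, against 650, 907 and 796 at 0 h. Zm00001d039083 had 901, 462 and 636 at 6 h, against 821, 1210 and 1055 at 0 h. In both, 1 library of 6 h overlapped with 0 h. The log2 changes for 6 h against 0 h were -0.73 (SE 0.35) in Zm00001d003857, -0.68 (SE 0.31) in Zm00001d039083 and -0.87 (SE 0.40) in Zm00001d005632. Their limma adjusted p were 0.814, 0.807 and 0.807, so none passed. Leaving out single libraries, the log2 change of Zm00001d005632 ran from -1.43 (without 6 h replicate 2) to -0.41 (without 6 h replicate 1), and its lowest limma adjusted p over all settings was 0.548. The log2 change of Zm00001d039083 was -0.44 without 6 h replicate 2.

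limma, fitted to all 38703 genes, called 0 members for 6 h against 0 h at an adjusted p under 0.05, against a background of 0% of all genes. At an unadjusted p under 0.05 there were 3 members, all lower at 6 h, which is 3 of 60 beside 6.11% of all genes, and 0 members with voom weights. The median log2 change of the members was -0.04, and that of all genes -0.01.

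The contrasts used by the rule are listed for completeness and support nothing. For 12 h against 0 h the members' median log2 change was 0.73, and that of all genes was 0.00. For 12 h against 6 h the members had 0.74 and all genes 0.01. limma called 0 members and 0% of all genes in each, with or without voom weights. Over all genes, 5.18% had an unadjusted p under 0.05 for 12 h against 0 h and 6.34% for 12 h against 6 h. Zm00001d019241, the member with the widest gap, had a log2 change of 1.18 (SE 0.25) against 0 h and of 1.27 (SE 0.25) against 6 h. The largest log2 change of a member against 6 h was 1.65 (SE 0.40), in Zm00001d005632. Neither gene passed the adjusted threshold.

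Rows next to a member in the table were at the level of all genes in the median. Of 120 such rows, 100 carried the next identifier number, 0 were members, and 0 had all 12 h libraries above the earlier ones, beside 1.48% of all genes, a share too small to set 120 rows apart. Their median log2 ratio of 12 h to the mean of 0 h and 6 h, with 73 read bases added to each mean, was 0.01, against 0.69 in members and 0.00 in all genes. It ran from -0.67 to 0.71 over the 120 rows, so that a few reached the range of the members, from 0.56 to 1.15. The closest pair of members, Zm00001d017485 and Zm00001d017510, was 22 rows apart.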

How the data were processed

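The authors deposited whole-number coverage (signal) values for 38703 genes in 9 libraries, and every column maps to a sample. cutadapt 1.11, Bowtie2 2.2.6, MACS2 and DESeq2 are named, with no role or order, per the submitters' processing notes. The sources used here do not state the genome build, the counting window, any read shift or any removal of duplicates. Retained duplicates would add coverage that is not independent, and the effect of the width of the window was not tested.

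The values were read as bases, not reads, because they pile up on multiples of 73 (16.6% to 22.6% of values above 0, where an even spread gives 1.37%). The planned count test was therefore replaced by limma 3.58.1 in R 4.3.3 on log2(coverage + 1), scaled by the trimmed mean of M values (30% of ratios and 5% of levels trimmed), with trended robust moderation, all 9 libraries and Benjamini-Hochberg adjustment over all genes. A trial run used simulated coverage with scatter from read sampling only. That run does not show how limma performs at the library-to-library spread seen here. Members were found on totals-scaled coverage. Members, lists and tests were chosen with earlier results of these data known. Named genes are the 10 largest ratios, the extremes of mean coverage and of 6 h over 0 h, those nearest the threshold and 5 genes outside the coverage range. The 9 kept through every omission, Zm00001d017510 and the stretch in the closing section were chosen after their values were seen. P-values reflect library-to-library spread alone, part of which may be technical, and a coverage of few reads limits precision. Gene lists, product classes, motifs and cell type markers, which need gene names or sequence, were not analysed here.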

Additional observations from a re-analysis of the deposited data

Results flagged for a closer look

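In 2 of the members named above, the 6 h libraries all lay below the 0 h mean and the 12 h libraries all above it. In Zm00001d003857 the change from the 0 h mean was 725 read bases higher at 12 h than at 6 h, and in Zm00001d039083 it was 908 higher. Both differences are part of what the rule selects, so the difference was not tested. In all, 6 of the 60 members had this course.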

How the results depend on the processing

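The number of members followed the settings of the rule. It was 114 with a mean from 500, 20 with a mean from 1000, 107 with a ratio of 1.4, 5 and 2 with the stricter ratios run, and 69 to 151 leaving out each library. Each of these changes the rule itself. Scaling by the trimmed mean of M values gave 57, all among the 60, and counting identical rows once gave 60. For 6 h against 0 h limma called 0 genes, and 0 to 1 leaving out each library, the 1 being a gene that is no member, without 6 h replicate 1. For 12 h against 0 h and 12 h against 6 h it called 0 genes under every setting run. With the replicate block it called 0 in each comparison, and the members' median log2 change for 6 h against 0 h was -0.04. Deviations of same-numbered libraries correlated at -0.014 to 0.013, and those of other pairs at -0.012 to 0.018, so the numbers were not taken to pair the libraries. Among 126 alternative values of log2 changes for 7 of the genes, 124 had the same sign and stayed on the same side of the threshold. The other 2 were the change of Zm00001d019241 for 6 h against 0 h, -0.0859 with all libraries, 0.0586 without 0 h replicate 2 and 0.0621 without 6 h replicate 3, and from -0.304 to 0.0621 over all omissions. The count-based tests were not run. About 10 reads per library in the median member at 0 h and 6 h limit what can be said of any single gene.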

Other observations

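One stretch of the table held several members. From Zm00001d031939 to Zm00001d033906, 1532 rows whose ends were set at members after the values were seen, which raises the share, 11 of 820 genes of the coverage range were members (1.34%), against 0.302% in the whole range. The same stretch held 18.3% of the members and 4.13% of the genes of that range. Among its less covered genes, with a mean under 730, 4 of 644 had the 12 h pattern (0.621%), against 1.08% of all such genes. With 6 h as the high time the same rule found 1 gene there. Whether these rows lie side by side on a chromosome was not checked.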
